A study of Mus musculus with 6 samples.

Results

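The proteasome genes described here are the probes whose symbol is PSM followed by a letter from A to G and a number, without the inducible subunits Psmb8, Psmb9 and Psmb10 and the activator subunits Psme1 and Psme2. The name alone decided which probes were included, though the members were chosen with earlier results of these data known. Of 26423 probes on the array, 45 met this rule, and they stood for 41 genes, since Psmb1, Psmd8, Psmd10 and Psmg4 had 2 probes each. They comprised 15 probes of the 20S core (14 genes, PSMA and PSMB), 22 of the 19S regulator (20 genes, PSMC and PSMD) and 8 of other regulators and assembly chaperones (7 genes, PSME, PSMF and PSMG). No probe used here was named for the core subunits Psma3 and Psmb3.

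RNA came from BV2, an immortalised line of mouse microglia grown in medium with serum, collected after 1 h. Cells were left untreated or given adenine, a purine base that is part of DNA and RNA. There were 2 arrays of untreated control cells, 2 of a lower dose and 2 of a higher dose. The sample titles and the treatment protocol give the doses as 20 and 80 µM and the sample characteristics as 80 and 250 µM, so only their order is used. Whether same-group arrays stem from separate cultures is not stated in the labels, so p-values measure only the spread between these arrays, which may be technical.

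The proteasome is the protease that degrades proteins tagged with ubiquitin. Its 20S core is a barrel of stacked rings: the outer rings of alpha subunits form the gate, and the inner rings of beta subunits carry the active sites. The 19S regulator caps the barrel, where non-ATPase subunits bind ubiquitin chains and cut them off and a ring of ATPases unfolds the substrate and feeds it into the core. Dedicated chaperones assemble both parts. In macrophages and microglia, inducible beta subunits can replace the standard catalytic ones, and the peptides they produce are presented to T cells.

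Intensities below are quantile-normalized units. Changes are log2 differences of group means with standard errors (SE, n = 2 arrays per group), and adjusted p-values come from limma, with Benjamini-Hochberg adjustment over all 26423 probes and a threshold of 0.05. Medians of the arrays as deposited ran from 125 to 170 units, and 41 of the 45 proteasome probes lay above the median probe. The dimmer 4 were Psma5, Psma8, Psmb11 and Psmf1. Microglia and macrophage markers were present: 10 of the 11 measured of 14 listed lay above the median probe. Their summed intensity was 77026 to 78995 units in the controls, 74312 to 82873 at the lower dose and 100514 to 113637 at the higher dose. Markers of fibroblasts summed to 103 to 128 units over all arrays, and 0 of 4 lay above the median probe. Astrocyte, neuron, oligodendrocyte and endothelial markers had 1 of 3, 1 of 2, 2 of 3 and 3 of 4 above it, and 0 of these passed the threshold in limma at either dose against control. Of all probes, 10.6% passed at the higher dose and 0.0114% at the lower dose. The endothelial markers summed to 2639 to 2714 units in the controls, 3082 to 3147 at the lower dose and 1936 to 2248 at the higher dose, and the oligodendrocyte markers to 1063 to 1854 units over all arrays. The microglia markers were divided at the higher dose: 2 of 11 rose against control, Aif1 (log2 2.07 ± 0.16, adjusted p = 0.0167) and Itgam (0.77 ± 0.16, adjusted p = 0.0435), 0 fell, and the median was −0.13. Among all probes 5.55% rose and 5.06% fell, and among those above the median 9.17% and 7.8%. Of the microglia markers that did not pass, Trem2 and Cd68 had 1.14 and 0.64, Csf1r −0.48, Adgre1 −0.49 and Tmem119 −0.49. Most of the higher sum came from Cd68, at a mean of 34842 units in the controls and 54306 at the higher dose, and Trem2, at 10345 and 22824. The deposited Cd68 intensity on the first higher-dose array, 65484 units, was near the highest value on any array, 65489 units. The change of Cd68 may therefore be compressed. The part of these shifts in the changes below was not tested.

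At the higher dose, 20S core genes and their assembly chaperones had positive changes, while 19S genes were divided around 0. Of the 45 probes, 7 rose and 3 fell against control. These 15.6% and 6.67% compare with 5.55% of all probes higher and 5.06% lower, and with 9.17% and 7.8% of the 13211 probes above the median. Counted in either direction, 22.2% of the proteasome probes passed, against 10.6% of all probes and 17.0% of those above the median. With only the brightest probe of each gene counted, 5 of 41 rose and 3 fell. The median change was 0.57 over the 20S probes, −0.02 over the 19S probes and −0.01 over all probes. The 20S core held 14 probes of 15 with positive values, and the 19S regulator 10 of 22. The 19S values moved with the scaling: on intensities as deposited 16 of 22 were positive with a median of 0.32, and with arrays scaled to equal medians 14 of 22 with a median of 0.24. The 20S median was 0.76 and 0.69 in those fits. The 20S median exceeded the 19S median by 0.59 in the normalized data and by 0.44 in either of the others. Those fits differ only by a factor per array, so they must give the same distance. In RNA from a whole culture, a change in the share of cells that express a gene and a change in RNA per cell cannot be told apart.

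**Figure D1:**
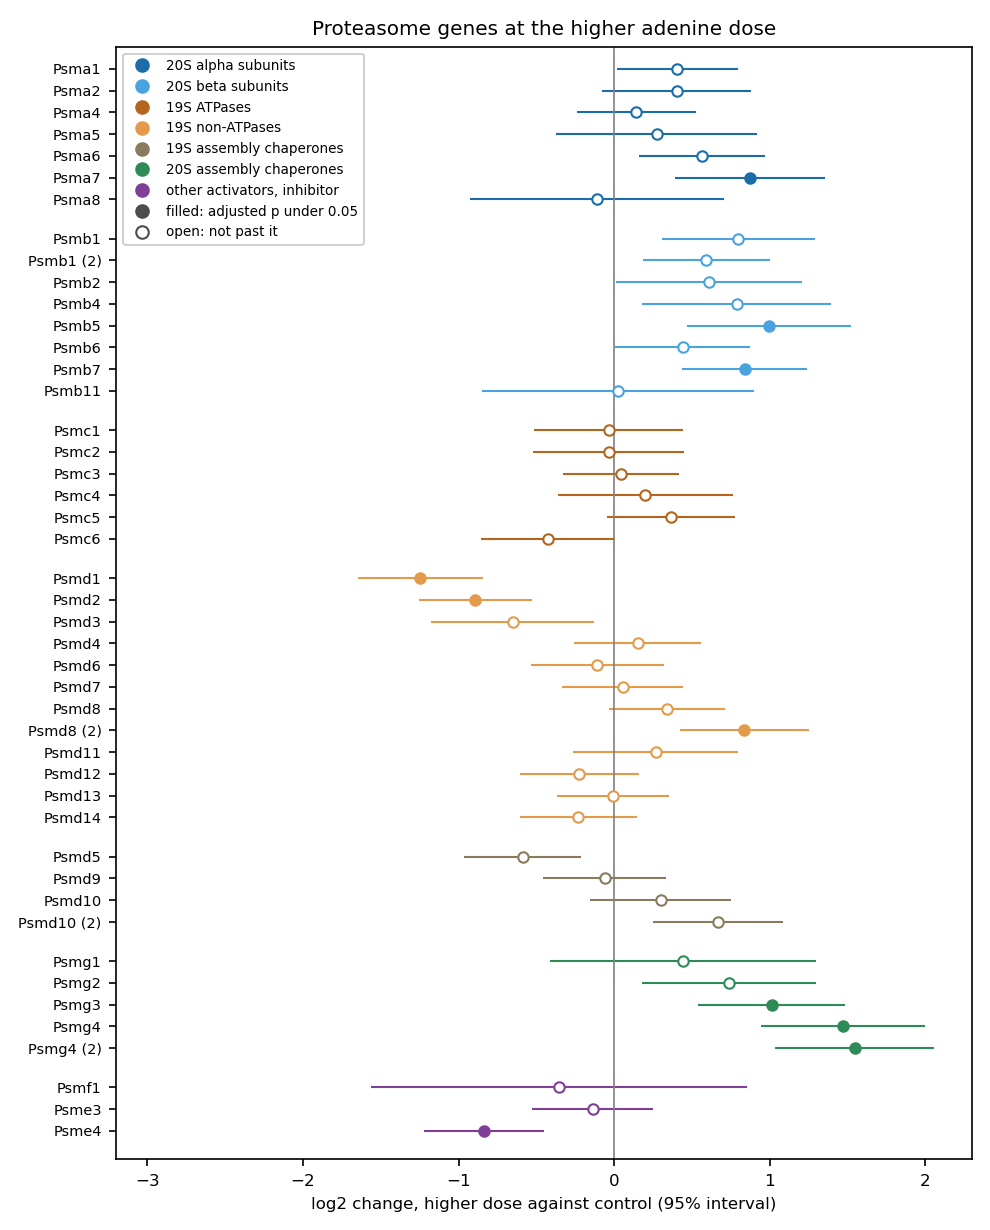
Log2 change at the higher dose against control (horizontal axis) for each of the 45 proteasome probes, grouped by role, with 95% intervals from limma; filled points passed the threshold and a 2 in brackets marks the dimmer probe of a gene. The 20S and PSMG probes lie mostly right of 0, the 19S ATPases near 0, and Psmd1, Psmd2 and Psme4 are the 3 filled points to the left.

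The normalized array values, from which the changes above were computed, showed the same division. Relative to the control mean, the median 20S probe stood at 0.01 and −0.01 in the controls, −0.002 and 0.13 at the lower dose, and 0.52 and 0.50 at the higher dose. The control values mirror each other because each probe was set against their mean. Both higher-dose arrays lay above the other 4. The median 19S probe stayed between −0.06 and 0.01 on the 6 arrays after normalization, whereas the median 19S change at the higher dose was 0.32 as deposited. The distance between the 20S and 19S medians was 0.51 and 0.49 on the higher-dose arrays, and between −0.01 and 0.18 on the others. This comparison of medians is a description, with no test.

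**Figure D2:**
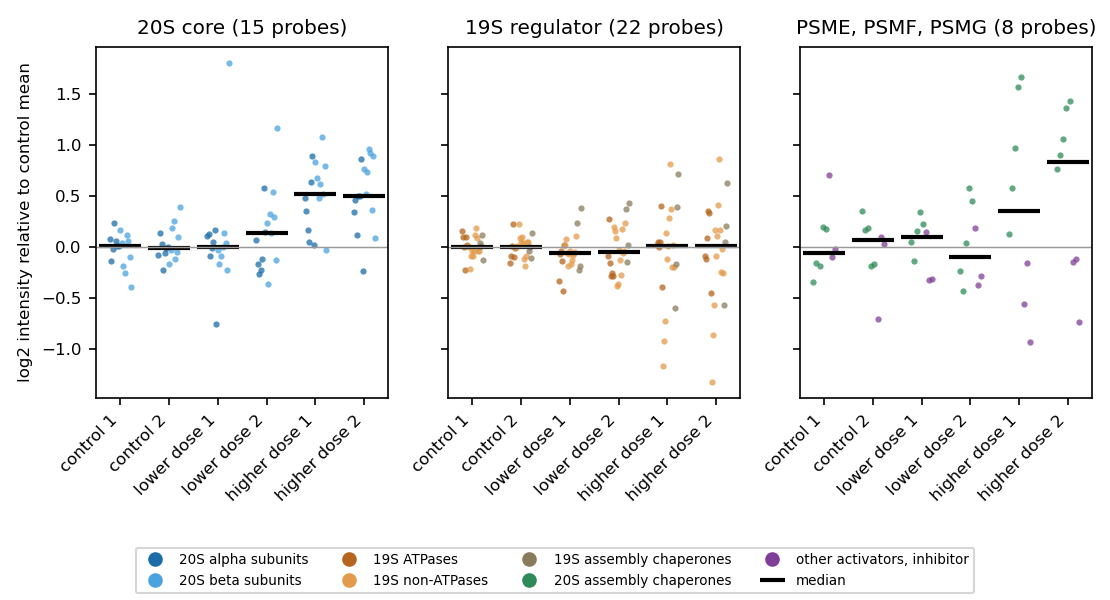
Log2 of the quantile-normalized intensity of each proteasome probe relative to its control mean (vertical axis) on each of the 6 arrays, for the 20S core, the 19S regulator and the other members; points are probes coloured by role and black bars are medians. The 20S bars of the higher-dose arrays stand at 0.52 and 0.50, whereas the 19S bars stay near 0 and the 19S points spread in both directions.

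Among the 7 alpha subunit probes, which build the outer rings, Psma7 rose. It read 10310 and 10167 units in the controls, 11469 and 15276 at the lower dose, and 18953 and 18564 at the higher dose. The higher-dose arrays lay above all others, and the change was 1.83-fold (log2 0.87 ± 0.19, adjusted p = 0.0496). Psma6 came next, at 21725 and 20044 units in the controls and 32373 and 29488 at the higher dose, without passing (0.57 ± 0.16, adjusted p = 0.0854). Psma1, Psma2 and Psma4 had changes of 0.41, 0.40 and 0.14. The Psma5 probe read 40.8 to 67.8 units on the 6 arrays, too dim to follow this subunit (0.27 ± 0.25). Psma8, an alpha subunit known from germ cells, was also dim at 80.8 to 150.7 units and had the lowest value of the ring (−0.11 ± 0.32, adjusted p = 0.855).

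Of the 8 beta subunit probes, Psmb5 and Psmb7 rose, and both encode catalytic subunits. Psmb5, which carries the chymotrypsin-like site, read 7535 and 6422 units in the controls, 7632 and 10131 at the lower dose, and 14694 and 13127 at the higher dose. The higher-dose arrays did not overlap with the rest (2-fold, log2 1.00 ± 0.21, adjusted p = 0.0456). Psmb7, with the trypsin-like site, read 9221 and 10595 units without adenine, then 8427 and 9038 at the lower dose. It reached 17112 and 18290 units at the higher dose, above all other arrays (1.79-fold, 0.84 ± 0.16, adjusted p = 0.0373). The third catalytic subunit, Psmb6, with the caspase-like site, did not pass (0.44 ± 0.17, adjusted p = 0.168). Its deposited intensities at the higher dose, 65485 and 63415 units, were near the highest value on any array, 65489 units, so its change may be compressed.

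The structural beta subunits had positive values short of the threshold. Psmb1 read 0.80 ± 0.19 by its brighter probe and 0.59 ± 0.16 by the other (adjusted p = 0.0625 and 0.0783), Psmb4 read 0.79 ± 0.24 (adjusted p = 0.101) and Psmb2 0.61 ± 0.24 (adjusted p = 0.167). On the brighter Psmb1 probe the controls read 14502 and 11495 units and the higher-dose arrays 23051 and 21875, with no overlap. Psmb11, known from the thymus, stayed dim, at 10.7 to 48.8 units (0.03 ± 0.34). Without Psma8 and Psmb11 all 13 remaining 20S probes had positive values.

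**Figure D3:**
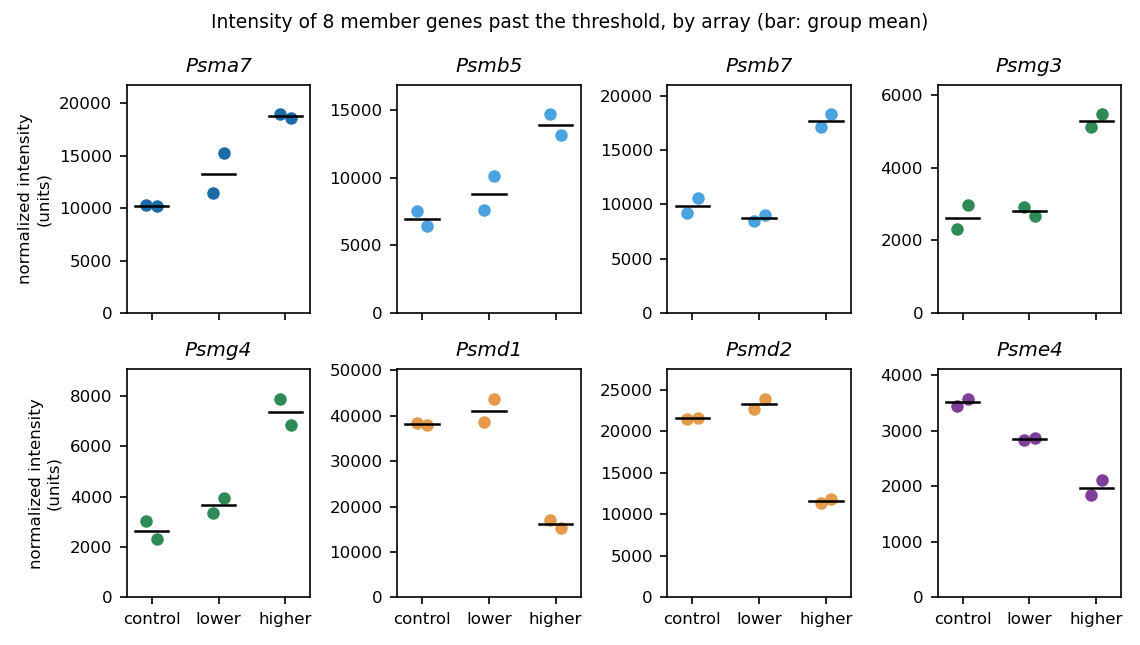
Quantile-normalized intensity (vertical axis, from 0) of 8 proteasome genes that passed the threshold against control, with 1 point per array and a bar at the group mean for control, lower and higher dose. Psma7, Psmb5, Psmb7, Psmg3 and Psmg4 are highest at the higher dose, and Psmd1, Psmd2 and Psme4 are lowest there.

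The chaperones that pair up to build the alpha ring, Psmg1 to Psmg4, held the 3 largest increases among the members. Both probes of Psmg4 rose. The brighter read 3039 and 2324 units in the controls, 3368 and 3963 at the lower dose and 7895 and 6849 at the higher dose (2.77-fold, log2 1.47 ± 0.21, adjusted p = 0.0236). The dimmer read 2194 and 1728, 2278 and 2650, and 6160 and 5254 units (2.92-fold, 1.55 ± 0.20, adjusted p = 0.0208). On either probe the higher-dose arrays lay far above the rest. Psmg3 rose from 2307 and 2979 units to 5123 and 5472 (2.02-fold, 1.01 ± 0.19, adjusted p = 0.0352), with 2915 and 2683 units at the lower dose. Psmg2 (0.74 ± 0.22, adjusted p = 0.0966) did not pass, and Psmg1, whose controls differed most (6953 and 11267 units), had 0.44 ± 0.34 (adjusted p = 0.446).

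The 6 ATPases of the 19S base held 0 probes past the threshold in limma, and 0 at an unadjusted p under 0.05. Of the 13211 probes above the median, 2511 were higher and 2967 lower at that unadjusted p. The changes of the ATPases ran from −0.43 ± 0.17 for Psmc6 (adjusted p = 0.177) to 0.36 ± 0.16 for Psmc5 (adjusted p = 0.216). In the controls Psmc6 read 27133 and 26529 units, against 20434 and 19542 at the higher dose. Psmc1, Psmc2 and Psmc3 lay between −0.04 and 0.04, and their 95% intervals ran from −0.52 to 0.45 at the widest. On intensities as deposited, 5 of the 6 were positive, Psmc6 (−0.10) being the exception, and the median of the ATPases was 0.35.

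Among the 12 non-ATPase probes, 2 genes fell and 1 rose. Psmd1, the largest scaffold subunit of the base, read 38386 and 38047 units in the controls, 38620 and 43769 at the lower dose, and 17035 and 15248 at the higher dose. All 4 other arrays lay above the higher-dose arrays (2.37-fold lower, log2 −1.25 ± 0.16, adjusted p = 0.0206). Psmd2, the second scaffold subunit of the base and a docking site for ubiquitin shuttle proteins, read 21493 and 21610 units in the controls, 22711 and 23922 at the lower dose, and 11375 and 11867 at the higher dose (1.85-fold lower, −0.89 ± 0.14, adjusted p = 0.0277). Its groups did not overlap either, and on intensities as deposited its change was −0.60 without passing, while Psmd1 stood at −0.95 and passed.

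The lid subunit Psmd8 gave unequal answers by probe. Its dimmer probe rose from 2522 and 2149 units to 4098 and 4224 (1.79-fold, log2 0.84 ± 0.16, adjusted p = 0.0402), and its brighter probe read 9668 and 10177 units against 12030 and 13144 (0.34 ± 0.15, adjusted p = 0.201). Psmd3, another lid subunit, did not pass (−0.65 ± 0.21, adjusted p = 0.109). Psmd14, the deubiquitinase of the lid, stood at −0.23 ± 0.15 (adjusted p = 0.373) and at 0.13 on intensities as deposited, and the ubiquitin receptor Psmd4 at 0.15 ± 0.16 (adjusted p = 0.583). Psmd6, Psmd7, Psmd11, Psmd12 and Psmd13 lay between −0.22 and 0.27.

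The chaperones of 19S base assembly had 0 probes of 4 past the threshold in limma against control. Psmd5 read 8936 and 8483 units in the controls, 10217 and 11283 at the lower dose and 5733 and 5866 at the higher dose (−0.59 ± 0.15, adjusted p = 0.0679). Psmd10 had 0.30 ± 0.18 by its brighter probe and 0.67 ± 0.16 by the other (adjusted p = 0.338 and 0.0639), and Psmd9 −0.06 ± 0.16. At an unadjusted p under 0.05, 1 of the 4 was higher and 1 lower, where 2511 and 2967 of the 13211 probes above the median were.

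Of the other regulators, Psme4, which encodes a large activator that caps the core in place of the 19S regulator, fell. It read 3456 and 3581 units in the controls, 2830 and 2877 at the lower dose, and 1844 and 2108 at the higher dose, with no overlap between groups (1.78-fold lower, −0.84 ± 0.15, adjusted p = 0.0348). Psme3, the subunit of a nuclear activator, stood at −0.14 ± 0.15 (adjusted p = 0.607). Psmf1, a proteasome regulator first described as an inhibitor, read 22.2 to 58.8 units on the 6 arrays and gave no usable estimate (−0.36 ± 0.48).

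At the lower dose, 0 of the 45 probes passed in limma, where 0.0114% of all probes did. At an unadjusted p under 0.05 there was 1, Psmb11, dim throughout, with 10.7 and 18.3 units in the controls against 48.8 and 31.3 at the lower dose. Of all 26423 probes, 897 were higher and 784 lower at that unadjusted p. The medians were 0.07 over the 20S probes and −0.07 over the 19S probes. On intensities as deposited they were 0.17 and 0.07, in a fit where the median of all probes itself stood at 0.22 (and at −0.25 between the doses). For the 41 brighter probes, the unadjusted 95% interval of the change reached 0.42 to either side at the median probe. With 2 arrays per group and adjustment over all probes, a larger difference on a dim probe also did not pass. In limma, Psmb11 at 1.48 ± 0.34 had an unadjusted p of 0.007 and an adjusted p of 0.764. Psmg4 had 0.46 and 0.34 by its 2 probes and Psma7 0.37, all with intervals that included 0.

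Set against the lower dose, the higher dose had 8 proteasome probes up and 3 down. These 17.8% and 6.67% compare with 6.78% of all probes higher and 6.95% lower, and with 11.1% and 10.8% of those above the median. With only the brightest probe of each gene counted, 5 of 41 were up and 3 down. The lower-dose arrays replace the controls here, but the higher-dose arrays are shared with the comparison above, so the results are not independent. Psmb7 (2.03-fold, log2 1.02 ± 0.16, adjusted p = 0.024), Psmg2 (2.04-fold, 1.03 ± 0.22, adjusted p = 0.0423), Psmg3 (0.92 ± 0.19, adjusted p = 0.0379) and both Psmg4 probes (1.01 ± 0.21 and 1.21 ± 0.20, adjusted p = 0.0392 and 0.0263) were higher. So were the dimmer probes of Psmb1 (0.86 ± 0.16, adjusted p = 0.0325) and Psmd8 (1.04 ± 0.16, adjusted p = 0.0244) and, among the ATPases, Psmc5 (0.72 ± 0.16, adjusted p = 0.0484). Psmd1 (2.55-fold lower, −1.35 ± 0.16, adjusted p = 0.018), Psmd2 (2.01-fold lower, −1.004 ± 0.142, adjusted p = 0.0218) and Psmd5 (1.85-fold lower, −0.89 ± 0.15, adjusted p = 0.0265) were lower. Psma7 (0.50 ± 0.19, adjusted p = 0.143) and Psmb5 (0.66 ± 0.21, adjusted p = 0.0975), whose lower-dose arrays lay between the other groups on average, did not pass between the doses.

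Leaving out an array left a group of 1, whose spread was taken from the other groups. Against control, the proteasome calls were lost without any 1 of the control or higher-dose arrays, as were nearly all calls over all probes. Without either lower-dose array fewer passed, among the proteasome probes and among all probes. These fits had 2 residual degrees of freedom against 3 with all arrays. Between the doses the proteasome calls were lost without any 1 of the 6 arrays. That includes the control arrays, which do not enter that difference and give only part of the spread. These losses therefore do not show which array a call rests on. The directions were steadier: over 16 alternatives the log2 change ran from 1.27 to 1.66 for the brighter Psmg4 probe, from 0.70 to 1.24 for Psmb5, from 0.74 to 1.13 for Psmb7, and from −1.33 to −0.95 for Psmd1. Alternatives that alter only the spread, the probes tested or the lower-dose arrays cannot move a log2 change against control. These ranges therefore rest on the remaining alternatives.

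The higher-dose change also followed the length of the gene, here its span from start to end in the GRCm38.p6 annotation. Across the 11357 probes above the median with a span, which are not independent, Spearman's rho between span and change was −0.33, and across the 45 proteasome probes it was −0.35. Within the 22 19S probes rho was −0.67, and within the 12 brighter 20S probes 0.02. Psmd1 and Psme4, which fell, have spans of 74.7 and 109 kb. Psmb7, which rose, has 55.9 kb, and Psmd2, which fell, has 12.3 kb. The 20S and 19S genes had like median spans, 12.4 and 12.7 kb per probe. With the span trend of all probes taken out array by array, the medians stood at 0.61 for 20S and −0.02 for 19S, and 5 proteasome probes passed: Psmb7 (0.99), both Psmg4 probes (1.47 and 1.55), Psmd1 (−1.09) and Psmd2 (−0.92). Adjusted p for Psma7, Psmb5, Psmg3, Psme4 and the dimmer Psmd8 probe then lay between 0.0577 and 0.0674. With the trend taken from the brighter probes alone, the medians were 0.42 and 0.02. A relation to span remained in part. Over the 11357 brighter probes rho was −0.15 with the trend of all probes taken out and −0.007 with that of the brighter probes. In the same order it was −0.45 and −0.38 within the 19S probes, and 0.47 and 0.74 within the brighter 20S probes.

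**Figure D4:**
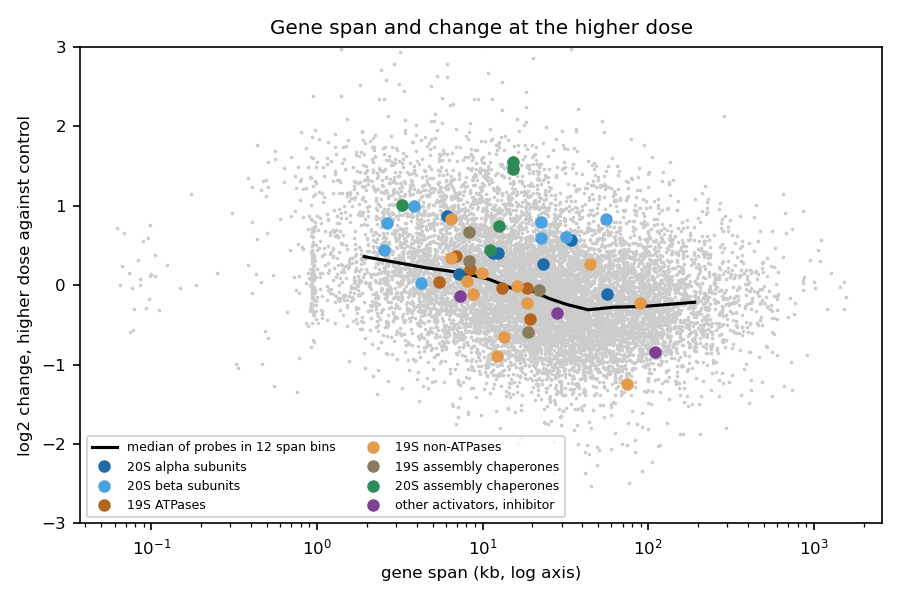
Gene span in kb (horizontal log axis) against the log2 change at the higher dose (vertical axis); grey points are the 11357 probes above the median with a span, of which 13 lie beyond the axis, the black line is their median in 12 span bins, and coloured points are the 45 proteasome probes by role. The black line falls over most of the range of spans and flattens at the longest, most 20S and PSMG points lie above it, and Psmd1, Psmd2 and Psme4 lie below it.

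Genes of factors that work with the proteasome were divided at the higher dose. Of 12 measured of 13 listed, 2 rose, 3 fell and 7 did not pass (median −0.40), where 5.55% of all probes rose and 5.06% fell. Pomp, the chaperone that completes the core and is then degraded by it, rose from 3783 and 4514 units to 11178 and 11522 (2.75-fold, log2 1.46 ± 0.17, adjusted p = 0.0204), with 5532 and 6278 units at the lower dose. Sem1, a small lid subunit, rose 1.97-fold (0.98 ± 0.18, adjusted p = 0.0373). Usp14, a deubiquitinase that docks on the 19S base, fell from 15881 and 18443 units to 8422 and 7948 (2.09-fold lower, −1.06 ± 0.18, adjusted p = 0.0305), and its dimmer probe did not pass (−0.64 ± 0.27, adjusted p = 0.194). Txnl1, a thioredoxin-like protein bound to the 19S regulator, fell 2.47-fold (−1.31 ± 0.19, adjusted p = 0.0249). The dim Zfand5 probe, for a protein that stimulates the proteasome, fell from 77.8 and 59.7 units to 31.7 and 32.5 (−1.09 ± 0.19, adjusted p = 0.0309). The ubiquitin receptor Adrm1 (0.43 ± 0.15, adjusted p = 0.139) did not pass.

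Of 9 measured of 11 shuttle and extraction factors, 0 passed in limma (median 0.08), and at smallest p were Ubqln1 (−0.70 ± 0.18, adjusted p = 0.0709) and Ubxn1 (0.64 ± 0.18, adjusted p = 0.0852). Of 6 measured of 11 regulators of proteasome genes, 0 passed (median 0.09). For either list, the share of all probes that passed was 10.6%. Nfe2l1, the transcription factor known to raise proteasome genes when proteasome activity is low, stood at 0.18 ± 0.24 (adjusted p = 0.676), Nfe2l2 at −0.81 ± 0.20 (adjusted p = 0.0641) and Keap1, which targets Nfe2l2 for degradation, at 0.55 ± 0.18 (adjusted p = 0.12). The ubiquitin-activating enzyme Uba6 was the only measured member of 6 ubiquitin and activating enzyme genes, and it fell from 1381 and 1006 units to 574 and 564 (2.07-fold lower, −1.05 ± 0.23, adjusted p = 0.0492).

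The inducible subunits, which the naming rule leaves out, give the reference for the standard ones. Psmb8 (2.91-fold, 1.54 ± 0.19, adjusted p = 0.0204), Psmb9 (3.87-fold, 1.95 ± 0.25, adjusted p = 0.0212) and Psmb10 (2.25-fold, 1.17 ± 0.18, adjusted p = 0.0269) rose, where the standard subunits they replace, Psmb5, Psmb6 and Psmb7, had 1.00, 0.44 and 0.84. The difference between each pair was not tested, and the change of Psmb6 may be compressed, as stated above. Psme1, a subunit of an interferon-inducible activator, rose 2.26-fold (1.18 ± 0.19, adjusted p = 0.0278), and its partner Psme2, by a dim probe, did not pass (0.37 ± 0.23, adjusted p = 0.349). Of these 5 genes 4 rose at the higher dose, where 5.55% of all probes did. At the lower dose 0 of the 5 passed in limma, with a median of −0.05, where 0.0114% of all probes passed.

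Nfe2l1 and Nfe2l2 bind the antioxidant response element, whose core was searched as TGACNNNGC on both strands of the RefSeq promoters (GRCm38.p6, 250 bases before to 50 after each start), and the CCAAT box as CCAAT in the same way. Promoters were matched for 33 of the 41 genes, with 35 promoters. The other 8 are Psma8, Psmb1, Psmb2, Psmb7, Psmc3, Psmd3, Psmd7 and Psmg2. The core of the antioxidant response element was in 6 of the 35 promoters (17.1%), against 12.4% of all 32851, with 2 of 11 for the 20S and 3 of 18 for the 19S. The CCAAT box was in 11 of 35 (31.4%), against 37.4% of all, with 5 of 11 (45.5%) for the 20S and 5 of 18 (27.8%) for the 19S. These few promoters were not tested against the rest. The matches of the first motif that lie wholly before the start are shown with their flanks, because they occur both in a gene that rose, Psmb5, and in genes that did not pass. Capitals mark the match, and a match is only a match of letters.
Psmb5, chr14:54618004-54618072, minus strand: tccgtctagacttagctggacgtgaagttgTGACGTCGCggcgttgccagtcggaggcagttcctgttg
Psmb6, chr11:70525318-70525356, plus strand: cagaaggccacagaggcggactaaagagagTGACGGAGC
Psmc6, chr14:45329574-45329635, plus strand: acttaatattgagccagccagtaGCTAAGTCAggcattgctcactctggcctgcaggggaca
Psmd9, chr5:123228129-123228189, plus strand: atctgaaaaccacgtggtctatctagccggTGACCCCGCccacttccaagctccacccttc
Psmd12, chr11:107479278-107479319, plus strand: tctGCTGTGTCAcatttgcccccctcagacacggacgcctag
The changes of these 5 genes at the higher dose were 1.00, 0.44, −0.43, −0.06 and −0.22, and the sixth match, in Psme4 (−0.84), reached past the start. In Psmc6 and Psmd12 the match is on the opposite strand and lies 227 and 247 bases before the start.

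**Figure D5:**
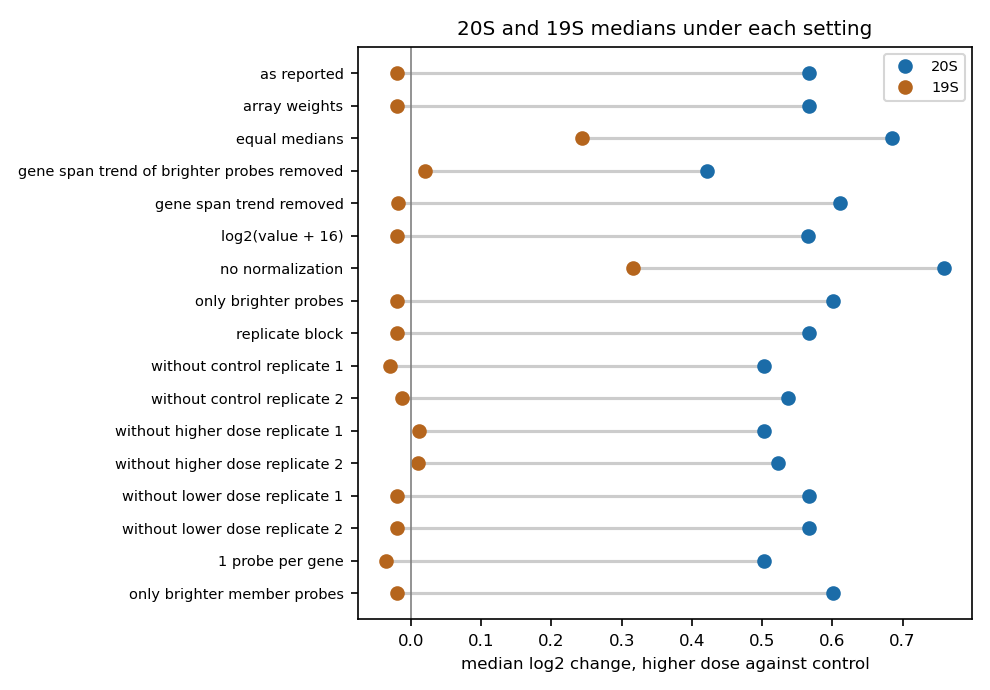
Median log2 change at the higher dose against control (horizontal axis) of the 20S probes (blue) and 19S probes (brown) as reported and under each alternative way of processing. The blue point lies right of the brown one in every row, and the brown point moves from near 0 to 0.24 and 0.32 where arrays were scaled to equal medians or not normalized. The rows for array weights, the replicate block and a lower-dose array left out repeat the reported medians.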

How the data were processed

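Cy5-labelled cDNA from BV2 RNA was hybridised to single-colour Phalanx OneArray arrays, per the labels' protocols. What the authors deposited is linear intensity per probe, from which background appears to have been subtracted, as some values lie below 0. RMA is named in the submitters' processing notes, but the values are not on a log scale and array medians differ, so the arrays were quantile-normalized, values under 1 were set to 1 and log2 was taken. The sources used here name no scanner or background method.

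All 6 arrays were fitted across all 26423 probes in limma 3.58.1 (R 4.3.3; lmFit and eBayes with a mean for each group and 3 residual degrees of freedom; tests were two-sided). Figures used Python 3.11.15 and matplotlib 3.10.9. The fit was tested on simulated data. Symbols from the platform annotation, 1 each for 20377 probes, were updated through RefSeq's GRCm38.p6 table, 18213 by exact match and 2126 by synonym. The members, lists and processing were chosen with earlier results of these data known. The naming rule took member genes past the threshold in any comparison, at either end of their role class, catalytic or ubiquitin-handling, and, of the related lists, Nfe2l1 and the 2 genes with the smallest p per list at the higher dose. Other genes were named after their values were seen. The brightest probe stands for a gene outside the members.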

Additional observations from a re-analysis of the deposited data

How the results depend on the processing

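With 2 arrays per group and 45 probes, counts depended on the settings, and the causes were not tested. The 10 probes past the threshold at the higher dose became 5 with only the groups compared, 5 and 6 after the gene span trend of all or of brighter probes was removed, 16 at an adjusted p of 0.1, 17 with log2(value + 16), 18 with a trended prior and 19 with only brighter probes tested. The 11 between the doses became 0 with only the groups compared, 17 with equal medians, 18 with log2(value + 16) and at an adjusted p of 0.1, 19 with a trended prior and 20 with only brighter probes. At the higher dose against control, counts over all probes moved as well. From 2803 of 26423, they became 1584 with only the groups compared. After the span trend of all or of brighter probes was removed they were 2440 and 2375. They became 4762 with log2(value + 16), 5000 with a trended prior, and 5524 of 13211 with only brighter probes. For an adjusted p of 0.1 and between the doses, counts over all probes are not given here. Leaving out 1 array lost some or all of the proteasome calls, as described above. With 1 probe per gene, 8 of 41 passed at the higher dose against control and 8 between the doses. The lower-dose count was 0 under each alternative.

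With the replicate number as a block, the counts were 0 and 3. At the higher dose against control, 11 of all 26423 probes passed in that fit. Deviations of same-numbered arrays correlated at 0.03 between control and lower dose, 0.31 between control and higher dose, and −0.23 between the doses. These values do not settle whether the numbers pair the samples.

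The 20S median was 0.76 without normalization, 0.69 with equal medians, 0.42 after the brighter span trend and 0.50 with 1 probe per gene, and 0.50 to 0.57 without 1 array. The 19S median was 0.32, 0.24, 0.020 and −0.036 in the same order, and −0.030 to 0.012 without 1 array. Their difference was 0.44, 0.44 and 0.40 in the first 3, and 0.49 to 0.59 without 1 array. The equal values of 0.44 are 1 result, since scaling an array moves all its probes alike. Leaving out a lower-dose array cannot move these medians. No gene taken by the naming rule and past the threshold changed sign at the higher dose against control. Other genes named above, such as Sem1, Usp14, Psmb10 and Aif1, were not followed under the alternatives.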
